A study of Mus musculus with 6 samples.

Results

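The transcription factors described here are 58 genes that carry a SOX, forkhead, GATA, T-box, PAX, twist-type bHLH, WT1, AP-2 or COUP-TF DNA-binding domain. They were chosen by gene symbol, and each of the 58 symbols matched 1 of the 27502 rows of the expression tables. RNA was sequenced from cultured vascular smooth muscle cells of the mouse aorta, the contractile cells of the vessel wall. In 3 samples (siEzh2) the cells had been given short interfering RNA against Ezh2, and 3 further samples (control) served as their comparison, all at 48 hours. Ezh2 is the catalytic subunit of the Polycomb complex that methylates histone H3 at lysine 27. The sources used here do not give the treatment of the control cells, the strain or age of the animals, or whether the 3 samples of a group were separate cultures. P-values therefore measure the spread among these samples alone, and that spread may be technical.

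SOX proteins bend DNA through a high-mobility-group domain, forkhead proteins bind through a winged helix, and GATA proteins read the motif that names them with zinc fingers. T-box and PAX proteins pattern the embryo along its axes, and the twist-type bHLH proteins act as pairs with E proteins. Many of these genes lie in CpG-rich domains that the Polycomb complex covers in embryonic cells, and in a differentiated cell most of them are normally silent. A cell keeps those that fit its origin, such as Foxc1 and Foxc2 in smooth muscle from mesenchyme and neural crest, Hand2 and Gata6 in the outflow tract and Tbx18 in mural cells.

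Values are fragments scaled by exon length and library size (FPKM), so levels may be compared between genes. Of the 58 factors, 25 averaged 1 FPKM or more in 1 group or both and were tested with limma on log2(FPKM + 1), in a fit over 11869 genes with Benjamini-Hochberg adjustment. The threshold was an adjusted p under 0.05, and every log2 fold change is siEzh2 minus control. The remaining 33, under 1 FPKM on average in both groups, are called near-silent, and were compared on read numbers recovered from the FPKM values. Sox5 passed the filter through its control mean alone. In bulk RNA, fewer cells of a type and less RNA per cell cannot be told apart.

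Among the 25 tested factors 10 were higher in siEzh2 samples, 4 were lower and 11 did not pass. The shares among all tested genes were 24.1% higher and 22.7% lower. The median log2 fold change of the 25 was 0.14, beside 0.01 over all tested genes. The 3 samples of each group did not overlap for 15 of the 25, close to the 58.1% of all tested genes for which this was so. By family, 3 of 5 tested SOX genes, 2 of 7 forkhead genes, 1 of 2 GATA genes, 1 of 5 T-box genes, the 1 tested PAX gene and both COUP-TF genes were higher. The lower ones were 1 SOX gene, 2 forkhead genes and 1 of 3 tested bHLH genes.

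Ezh2 itself had 1.20, 1.09 and 1.05 FPKM in siEzh2 samples 1 to 3, against 3.41, 3.59 and 3.88 FPKM in control samples 1 to 3. The groups did not overlap, and its log2 fold change was −1.13 (adjusted p = 5.15e-05). Recovered library sizes were 16080005 to 17553743 reads in siEzh2 samples and 18248440 to 18753124 reads in control samples. Of 7 tested smooth muscle markers 6 were lower in siEzh2 samples, with a summed level of 607 to 647 FPKM against 873 to 898 FPKM in control samples. Among them Tagln had a mean of only 0.228 FPKM in siEzh2 and 0.253 FPKM in control samples, and Myh11 1.12 and 1.83 FPKM. Nearly all of the summed level therefore came from other markers of the list, and why Tagln was so low was not tested. Of 13 mitochondrially encoded genes 8 were lower, and 3 of 5 tested fibroblast markers were lower and 1 higher. Over all tested genes 22.7% were lower and 24.1% higher, shares that also stand beside the smooth muscle and neural counts. The fibroblast list summed to 401 to 444 FPKM in siEzh2 and 532 to 573 FPKM in control samples. The neural list, summed, ran from 49.8 to 53.1 FPKM in siEzh2 and from 53.0 to 55.8 FPKM in control samples, with 1 of 2 tested genes lower, and the 1 epithelial marker measured stayed at or under 0.0377 FPKM. The part of these differences in the results below was not tested.

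The deposited tables give no sequence, so promoters were taken from RefSeq (GRCm38.p6, the assembly of mm10), from 250 bases before to 50 bases after a transcript start. A promoter was found for 39 of the 58 factors, 55 promoters in all. Of these 61.8% were CpG-rich, meaning over 50% GC and an observed-to-expected CpG ratio over 0.6, beside 33.3% of 32851 promoters of all genes. The share was 78.3% for the 23 promoters of tested factors and 50% for the 32 of near-silent ones, and 67.9% for promoters of all tested genes. These shares count promoters and not genes, which were 18 tested and 21 near-silent factors. Sox6 has several promoters here, none of them CpG-rich, and they lower the near-silent share. The letters TATAAA, on either strand, stood in 9.09% of the factors' promoters and 13.6% of all promoters. The share was 4.35% for tested factors, 12.5% for near-silent ones and 7.04% for promoters of all tested genes. The following 6 promoters belong to the 3 SoxC genes and Pax1, which were higher, and to Foxc1 and Twist1, which were lower. They are given 5′ to 3′ on the gene's strand with each CpG in capitals.
Sox4, chr13:28953650-28953949, minus strand: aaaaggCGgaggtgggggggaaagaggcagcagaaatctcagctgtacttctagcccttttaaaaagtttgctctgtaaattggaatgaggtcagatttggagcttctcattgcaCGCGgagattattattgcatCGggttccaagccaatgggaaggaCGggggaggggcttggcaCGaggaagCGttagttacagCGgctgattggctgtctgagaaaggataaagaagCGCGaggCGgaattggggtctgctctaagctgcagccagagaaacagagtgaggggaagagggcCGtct
Sox11, chr12:27342669-27342968, minus strand: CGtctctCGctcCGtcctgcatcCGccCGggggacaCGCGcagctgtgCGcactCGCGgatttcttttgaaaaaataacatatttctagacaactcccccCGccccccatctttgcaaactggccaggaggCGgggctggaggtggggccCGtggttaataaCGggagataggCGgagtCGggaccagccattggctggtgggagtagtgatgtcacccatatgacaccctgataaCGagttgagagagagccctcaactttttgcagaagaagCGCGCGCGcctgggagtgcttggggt
Sox12, chr2:152397997-152398296, minus strand: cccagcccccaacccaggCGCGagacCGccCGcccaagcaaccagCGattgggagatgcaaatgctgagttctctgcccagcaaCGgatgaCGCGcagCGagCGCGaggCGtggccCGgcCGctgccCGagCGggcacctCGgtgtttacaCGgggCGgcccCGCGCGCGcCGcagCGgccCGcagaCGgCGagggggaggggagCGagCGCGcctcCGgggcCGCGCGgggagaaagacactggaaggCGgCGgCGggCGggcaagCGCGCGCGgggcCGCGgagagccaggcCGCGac
Pax1, chr2:147364744-147365043, plus strand: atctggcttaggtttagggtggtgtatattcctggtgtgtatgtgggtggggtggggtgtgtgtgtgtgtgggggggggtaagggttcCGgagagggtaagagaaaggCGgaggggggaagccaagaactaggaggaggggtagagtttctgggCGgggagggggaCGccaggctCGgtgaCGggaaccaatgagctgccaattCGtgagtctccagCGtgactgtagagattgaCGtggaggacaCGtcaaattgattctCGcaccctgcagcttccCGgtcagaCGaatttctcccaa
Foxc1, chr13:31806396-31806695, plus strand: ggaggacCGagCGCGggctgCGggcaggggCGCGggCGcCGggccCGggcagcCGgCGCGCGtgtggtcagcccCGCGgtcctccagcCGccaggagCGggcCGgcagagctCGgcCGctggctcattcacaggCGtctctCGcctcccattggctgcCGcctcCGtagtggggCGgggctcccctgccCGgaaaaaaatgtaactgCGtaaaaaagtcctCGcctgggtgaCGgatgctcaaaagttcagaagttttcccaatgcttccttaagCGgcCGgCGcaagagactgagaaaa
Twist1, chr12:33957421-33957720, plus strand: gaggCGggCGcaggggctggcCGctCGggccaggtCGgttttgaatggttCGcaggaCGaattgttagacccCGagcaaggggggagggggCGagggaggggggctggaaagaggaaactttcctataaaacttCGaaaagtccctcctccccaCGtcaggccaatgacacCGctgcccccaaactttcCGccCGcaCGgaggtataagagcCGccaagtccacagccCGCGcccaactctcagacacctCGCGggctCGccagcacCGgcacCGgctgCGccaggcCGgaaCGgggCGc
CpG numbers in these windows were 12 for Sox4, 21 for Sox11, 47 for Sox12 and 13 for Pax1, and 32 for Foxc1 and 27 for Twist1. Over all tested factors with a promoter here, the 12 promoters of 8 higher genes had a median of 18 CpGs and 66.7% were CpG-rich, and the 3 promoters of 3 lower genes had a median of 32 CpGs and 100% were CpG-rich. These numbers are a description, with no test.

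**Figure D1:**
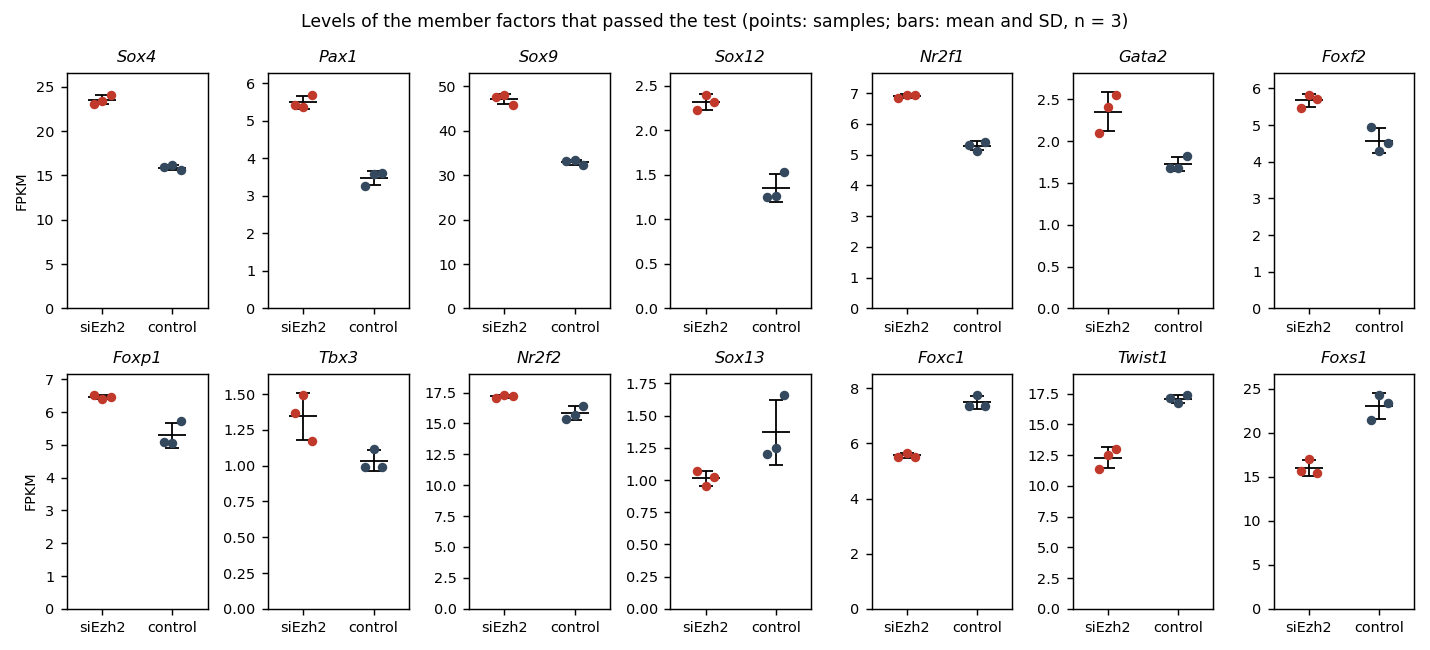
FPKM (vertical axis, from 0) in siEzh2 samples (left) and control samples (right) for the 14 factors that passed the test. Points are samples, bars the mean and SD (n = 3 each). The first 10 panels hold the factors that were higher, from Sox4 to Nr2f2, and the last 4 those that were lower, and no panel has overlapping groups.

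Of the 5 tested SOX genes Sox4, Sox9 and Sox12 were higher in siEzh2 samples and Sox13 was lower. The summed level of the 13 SOX genes was 76.4 ± 0.98 FPKM in siEzh2 samples and 53.6 ± 0.317 FPKM in control samples (SD, n = 3 each). Most of this sum came from Sox9 and Sox4. Sox9, a SoxE factor that drives cartilage and neural crest development (ENSMUSG00000000567, chromosome 11 from 112782224 to 112787760, plus strand), had 47.5, 48.2 and 45.8 FPKM in siEzh2 samples, against 33.1, 33.4 and 32.2 FPKM in control samples. Its samples were tightly grouped and far apart, with a mean 1.43 times higher (log2 fold change 0.51, SE 0.0364, adjusted p = 0.000187). Sox9 was also the most abundant of all 58 factors. The ratio of Sox9 to Sox4 was 2.01 ± 0.0913 in siEzh2 and 2.07 ± 0.00673 in control samples (SD, n = 3 each).

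SoxC genes, which act redundantly in progenitor cells and stimulate neural and mesenchymal differentiation, were higher in all 3 cases, although they differ widely in level. Their summed level was 26.3 ± 0.544 FPKM in siEzh2 and 17.4 ± 0.0973 FPKM in control samples (SD, n = 3 each). Sox4 (ENSMUSG00000076431, chromosome 13 from 28948919 to 28953713, minus strand) had 23.1, 23.4 and 24.1 FPKM in siEzh2 samples and 15.9, 16.1 and 15.6 FPKM in control samples. No value overlapped, and the mean was 1.48 times higher (log2 fold change 0.54, SE 0.0348, adjusted p = 0.000137). Antisense gene Gm26735 shares 54.6% of the exon bases of Sox4 and was not among the genes measured. The kit was stranded, but the sources used here do not say whether reads were counted by strand, so the Sox4 level is uncertain. Sox12 (ENSMUSG00000051817, chromosome 2 from 152393611 to 152398063, minus strand) had 2.23, 2.40 and 2.32 FPKM in siEzh2 samples against 1.25, 1.27 and 1.54 FPKM in control samples. This was 1.71 times higher, the largest ratio among the 25 tested factors (log2 fold change 0.50, SE 0.056, adjusted p = 0.000923). Sox11, the near-silent SoxC gene (ENSMUSG00000063632, chromosome 12 from 27334264 to 27342574, minus strand), had 69, 65 and 69 reads in siEzh2 samples against 33, 24 and 35 reads in control samples. In FPKM this was 0.479 ± 0.0355 in siEzh2 and 0.199 ± 0.0397 in control samples (SD, n = 3 each), a ratio of 2.40 (limma-voom log2 fold change 1.27, SE 0.229, adjusted p = 3.39e-05).

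The SoxD genes, of which Sox5 and Sox6 are partners of Sox9 in cartilage, had no member that was higher. Sox13 had 1.07, 0.950 and 1.03 FPKM in siEzh2 samples and 1.21, 1.25 and 1.66 FPKM in control samples. All siEzh2 values were lower, by 1.35 times on average, with a log2 fold change of −0.23 (SE 0.0775) whose adjusted p of 0.05 was under the threshold only before rounding. Without control sample 3, the highest, the log2 fold change was −0.15 (adjusted p = 0.0544), and the call was also lost without control sample 2 or any siEzh2 sample (up to 0.13, without siEzh2 sample 2). Sox5 had means of 0.963 ± 0.123 and 1.03 ± 0.0398 FPKM in siEzh2 and control samples (SD, n = 3 each, adjusted p = 0.467, 95% interval of the log2 fold change −0.18 to 0.08). Sox6 had 187 reads in all siEzh2 samples together and 236 in control samples, with overlapping groups (adjusted p = 0.394).

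Cartilage genes that Sox9 activates together with Sox5 and Sox6 were mostly silent. Of 14 measured, 10 were near-silent and 4 were tested, with a median log2 fold change of 0.01. Matn4 and Comp, matrix proteins of cartilage, passed the filter only through the group in which they were high, siEzh2 for Matn4 and control for Comp. Matn4 was higher at 1.16 ± 0.039 FPKM in siEzh2 and 0.519 ± 0.108 FPKM in control samples (SD, n = 3 each, adjusted p = 0.000951, log2 fold change 0.51). Comp was lower at 0.620 ± 0.122 FPKM in siEzh2 and 1.32 ± 0.140 FPKM in control samples (SD, n = 3 each, adjusted p = 0.00192, log2 fold change −0.52). Col2a1 had 4.56 ± 0.452 and 4.25 ± 0.142 FPKM in siEzh2 and control samples (SD, n = 3 each, adjusted p = 0.361), and Col11a1 47.0 ± 0.907 and 49.1 ± 0.846 FPKM (adjusted p = 0.196). Near-silent Col9a3, a collagen chain of cartilage, was higher on reads (log2 fold change 1.01, adjusted p = 0.0274). Acan, the defining proteoglycan of cartilage, had 1 read in the 3 siEzh2 samples together and 0 in the control samples. The chondrocyte marker list summed to 4.14 to 5.03 FPKM in siEzh2 and 4.22 to 4.45 FPKM in control samples.

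The other SOX genes were all near-silent. Those of the SoxF group, which specify endothelium, had 65 reads in siEzh2 and 55 in control samples for Sox7, 8 and 4 for Sox17, and 4 and 3 for Sox18. Sox7 overlapped between groups and was high in 1 sample only, siEzh2 sample 1, at 0.565 FPKM, while the other 5 lay between 0.266 and 0.328 FPKM. Endothelial markers summed to 4.88 to 5.48 FPKM in siEzh2 and 4.11 to 4.34 FPKM in control samples, with Kdr higher, Emcn lower, and near-silent Tek and Vwf higher on reads. Pecam1 averaged 0.0789 FPKM in siEzh2 and 0.170 FPKM in control samples, and Tie1 0.00807 and 0.0146 FPKM. Sox8, the second SoxE gene, had 15 reads in siEzh2 and 6 in control samples without overlap in FPKM (adjusted p = 0.0862). Sox2, a pluripotency factor, had 11 and 15 reads in siEzh2 and control samples, and Sox1 had 0 and 2.

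Forkhead genes moved in both directions. Their summed level was 77.3 ± 2.60 FPKM in siEzh2 samples and 82.9 ± 1.80 FPKM in control samples (SD, n = 3 each). Foxs1, a forkhead gene of pericytes and sensory neurons (ENSMUSG00000074676, chromosome 2 from 152931898 to 152933208, minus strand), had 15.6, 17 and 15.4 FPKM in siEzh2 samples against 21.4, 24.3 and 23.4 FPKM in control samples. Every siEzh2 value was lower, by 1.44 times on average (log2 fold change −0.50, SE 0.0609, adjusted p = 0.00123). Foxs1 lies 534 kb from Sox12, which was higher.

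Foxc1 and Foxc2, paralogs needed for vascular and skeletal development, were set apart by the test, which Foxc1 passed as lower and Foxc2 did not pass. Foxc1 (ENSMUSG00000050295, chromosome 13 from 31806633 to 31812476, plus strand) had 5.51, 5.67 and 5.51 FPKM in siEzh2 samples and 7.35, 7.76 and 7.35 FPKM in control samples. Its groups did not overlap and the mean was 1.35 times lower (log2 fold change −0.37, SE 0.0362, adjusted p = 0.00057). Foxc2 had 23.1, 25.7 and 25.8 FPKM in siEzh2 samples and 22.5, 21.8 and 23.2 FPKM in control samples, with siEzh2 sample 1 inside the control range (log2 fold change 0.14, 95% interval 0.01 to 0.27, adjusted p = 0.0797). The ratio of Foxc2 to Foxc1 within a sample was 4.47 ± 0.250 in siEzh2 and 3.01 ± 0.180 in control samples (SD, n = 3 each). An exact two-sided permutation test gave p = 0.1, the smallest that 3 against 3 samples allow. Without siEzh2 sample 1, Foxc2 passed the test (log2 fold change 0.19, adjusted p = 0.0213).

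Foxf2, Foxq1 and Foxc1 form a cluster on chromosome 13 between 31556134 and 31812476. Foxf2, which keeps brain pericytes and gut mesenchyme (chromosome 13 from 31625816 to 31631403, plus strand), had 5.47, 5.83 and 5.71 FPKM in siEzh2 samples against 4.93, 4.28 and 4.51 FPKM in control samples. It was higher in every siEzh2 sample, by 1.24 times on average (log2 fold change 0.26, SE 0.0525, adjusted p = 0.00852), while Foxc1, 175 kb away, was lower. Foxf2 over Foxc1 gave a ratio of 1.02 ± 0.0229 in siEzh2 and 0.613 ± 0.0595 in control samples (SD, n = 3 each, exact permutation p = 0.1, the smallest possible). Near-silent Foxq1, 64.8 kb from Foxf2, had 35 reads in siEzh2 and 21 in control samples without overlap in FPKM (adjusted p = 0.172). It shares 66.1% of its exon bases with the antisense gene A530084C06Rik, which was not among the genes measured.

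Foxp1, a repressor of the FOXP group (ENSMUSG00000030067, chromosome 6 from 98925338 to 99522721, minus strand), had 6.53, 6.39 and 6.46 FPKM in siEzh2 samples and 5.08, 5.06 and 5.73 FPKM in control samples. The groups were apart, with a mean 1.22 times higher (log2 fold change 0.25, SE 0.0501, adjusted p = 0.00851). Foxp2, its paralog, had 581 and 708 reads in siEzh2 and control samples, at 0.696 ± 0.0592 and 0.779 ± 0.071 FPKM (SD, n = 3 each), with overlap (adjusted p = 0.253).

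Foxo1 and Foxo3, FOXO factors that act under insulin signalling, did not pass the test. Foxo3 had 13.2, 13.7 and 13.2 FPKM in siEzh2 samples and 14.4, 15.2 and 14.2 FPKM in control samples, without overlap (log2 fold change −0.12, 95% interval −0.21 to −0.02, adjusted p = 0.0514). Foxo1 had 2.84 ± 0.261 FPKM in siEzh2 and 2.48 ± 0.252 FPKM in control samples (SD, n = 3 each, adjusted p = 0.153, log2 fold change 0.14). The ratio of Foxo3 to Foxo1 was 4.72 ± 0.363 in siEzh2 and 5.92 ± 0.631 in control samples (SD, n = 3 each). Foxo4, a FOXO gene outside the 58 that was named after its value was seen, was higher at 7.86 ± 0.252 FPKM in siEzh2 and 6.57 ± 0.617 FPKM in control samples (SD, n = 3 each, adjusted p = 0.0297, log2 fold change 0.23). Of 13 tested FOXO target genes 5 were higher and 4 lower, beside 24.1% and 22.7% of all tested genes, with a median log2 fold change of 0.06. Higher ones included Irs2, an insulin receptor substrate (log2 fold change 0.31, adjusted p = 0.00325), and Gadd45a, a stress response gene (0.41, 0.00719). Lower ones included Klf15, a metabolic regulator, at 8.57 FPKM in siEzh2 and 17 FPKM in control samples (log2 fold change −0.91, adjusted p = 0.000171), and Txnip, an inhibitor of thioredoxin (−0.46, 0.000738).

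The remaining forkhead genes were near-silent and did not pass. Foxd2 had 80 reads in siEzh2 and 111 in control samples, and Foxf1, the neighbour of Foxc2 at 28.0 kb, had 19 and 37 reads. Both had lower FPKM in every siEzh2 sample than in any control sample (adjusted p = 0.343 for Foxd2 and 0.293 for Foxf1). Foxl2, a factor of the ovary, was the reverse, with 17 reads in siEzh2 and 5 in control samples and no overlap (adjusted p = 0.0854). Foxd1 and Foxa1 overlapped between groups, with 142 and 48 reads in siEzh2 samples against 155 and 69 in control samples, and Foxa2, a factor of endoderm, had 1 and 4 reads.

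**Figure D2:**
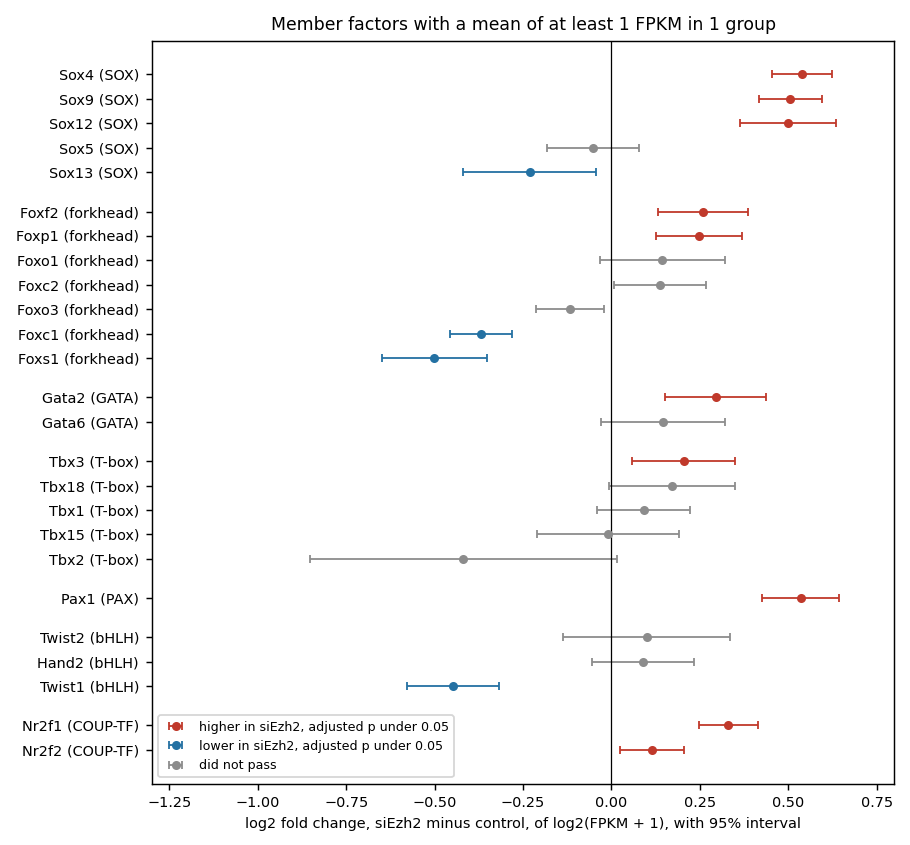
Log2 fold change, siEzh2 minus control, of log2(FPKM + 1) with its 95% interval for the 25 tested factors, ordered by family. Red marks the 10 that were higher, blue the 4 that were lower and grey the 11 that did not pass; Tbx2 has the widest interval, from −0.85 to 0.01.

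Of the GATA genes, Gata2 was higher. Gata2, a factor of blood and endothelial cells (ENSMUSG00000015053, chromosome 6 from 88193891 to 88207032, plus strand), had 2.10, 2.40 and 2.55 FPKM in siEzh2 samples and 1.68, 1.68 and 1.83 FPKM in control samples. All siEzh2 values were higher, by 1.36 times on average (log2 fold change 0.29, SE 0.0593, adjusted p = 0.00838). Ptprc, the defining marker of leukocytes, had 4 reads in each group. Of 4 tested leukocyte markers 2 were higher and 2 lower, beside 24.1% and 22.7% of all tested genes. The leukocyte list summed to 14.1 to 15.2 FPKM in siEzh2 and 17.2 to 20.5 FPKM in control samples. Gata6, which maintains the differentiated state of smooth muscle (chromosome 18), was the most abundant GATA gene at 11.9 ± 0.436 FPKM in siEzh2 and 10.7 ± 1.06 FPKM in control samples (SD, n = 3 each, adjusted p = 0.146, 95% interval of the log2 fold change −0.03 to 0.32). Near-silent Gata3 had 109 reads in siEzh2 and 93 in control samples, with the highest value, 0.75 FPKM, in siEzh2 sample 1, the sample in which Sox7 was also highest. Gata4, a heart factor, had 13 reads in each group.

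Tbx3 was the T-box gene that passed the test, as higher. Tbx3, a repressor in limb and heart patterning, had 1.37, 1.49 and 1.17 FPKM in siEzh2 samples and 0.992, 1.12 and 0.992 FPKM in control samples. The groups did not overlap, and the log2 fold change was 0.20 (SE 0.0603, adjusted p = 0.0337). Leaving out control sample 1 or 3, or siEzh2 sample 1 or 2, ended this call (adjusted p up to 0.0946). Tbx2, its paralog, varied most within a group, with 0.754, 1.26 and 1.90 FPKM in siEzh2 samples and 2.08, 1.75 and 2.24 FPKM in control samples. Only siEzh2 sample 3 reached the control range, and the log2 fold change of −0.42 did not pass (adjusted p = 0.1). Without that sample the log2 fold change was −0.60 (adjusted p = 0.0184).

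Tbx15, a factor of skeletal and fat precursors, was the most abundant T-box gene and nearly level, at 6.33 ± 0.593 FPKM in siEzh2 and 6.38 ± 0.606 FPKM in control samples (SD, n = 3 each, 95% interval of the log2 fold change −0.21 to 0.19). Tbx18, which marks pericytes and smooth muscle precursors, had 5.12 ± 0.564 and 4.42 ± 0.183 FPKM in siEzh2 and control samples (SD, n = 3 each, adjusted p = 0.102). Without siEzh2 sample 1 it passed (log2 fold change 0.25, adjusted p = 0.0107). Tbx1, a factor of the pharyngeal arches, had 1.16 ± 0.105 and 1.03 ± 0.0955 FPKM (SD, n = 3 each, adjusted p = 0.214). Tbx20, Tbx4 and Tbx5, which build the heart and limbs, were near-silent, with 208, 24 and 11 reads in siEzh2 samples against 207, 14 and 11 in control samples and overlapping groups.

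Among the PAX genes Pax1 alone was above 1 FPKM, and it was higher in siEzh2 samples. Pax1, which patterns the sclerotome that forms the vertebrae (ENSMUSG00000037034, chromosome 2 from 147361925 to 147393295, plus strand), had 5.42, 5.36 and 5.69 FPKM in siEzh2 samples against 3.27, 3.57 and 3.61 FPKM in control samples. The mean was 1.58 times higher, with no overlap (log2 fold change 0.54, SE 0.0448, adjusted p = 0.00032). Pax9, its close paralog in the sclerotome, had 0.633 ± 0.15 FPKM in siEzh2 and 0.634 ± 0.111 FPKM in control samples (SD, n = 3 each), with 164 and 178 reads (adjusted p = 0.993). Pax3, which marks neural crest and muscle precursors, had 11, 9 and 6 reads in siEzh2 samples and 0, 4 and 3 reads in control samples. This passed the test on reads (log2 fold change 2.27, SE 0.791, adjusted p = 0.0236), but not without control sample 1 (1.29, adjusted p = 0.171) or siEzh2 sample 1 (2.06, adjusted p = 0.0657). Pax2 and Pax8, factors of kidney and thyroid, had 7 and 10 reads in siEzh2 samples and 5 and 4 in control samples, and Pax6 and Pax7 had 3 and 0 reads in siEzh2 samples and 6 and 2 in control samples.

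Of the 3 tested twist-type bHLH genes Twist1 was lower and the others did not pass. Twist1, a mesenchymal factor of the neural crest and of epithelial-mesenchymal transition (ENSMUSG00000035799, chromosome 12 from 33957671 to 33959829, plus strand), had 11.3, 12.5 and 13 FPKM in siEzh2 samples and 17.1, 16.8 and 17.4 FPKM in control samples. All siEzh2 values were lower, by 1.39 times on average (log2 fold change −0.45, SE 0.0538, adjusted p = 0.00117). Twist2, its paralog, had 3.39 ± 0.307 and 3.11 ± 0.506 FPKM in siEzh2 and control samples (SD, n = 3 each, adjusted p = 0.44), and shares 46.5% of its exon bases with the antisense gene Gm29100, which stayed under 0.348 FPKM. The ratio of Twist2 to Twist1 was 0.276 ± 0.00970 in siEzh2 and 0.182 ± 0.0263 in control samples (SD, n = 3 each, exact permutation p = 0.1, the smallest possible). Hand2, a factor of heart and branchial arches, had 11.4 ± 0.746 and 10.7 ± 0.548 FPKM (SD, n = 3 each, adjusted p = 0.259), and its near-silent paralog Hand1 had 1 and 0 reads. Tcf21, a factor of adventitial and epicardial cells, had 18 reads in siEzh2 and 26 in control samples.

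The partners and inhibitors of these families included more lower than higher genes. Of 15 tested genes that encode E proteins, Id proteins, GATA cofactors or Groucho corepressors, 2 were higher and 9 lower, beside 24.1% and 22.7% of all tested genes, with a median log2 fold change of −0.16. Tcf3, an E protein that pairs with Twist1 and Hand2, was higher, with 25 ± 1.14 FPKM in siEzh2 and 17.9 ± 0.515 FPKM in control samples (SD, n = 3 each, adjusted p = 0.000575, log2 fold change 0.46). Tcf12, another E protein, was lower (log2 fold change −0.28, adjusted p = 0.00235). All 4 Id genes, whose products bind E proteins and keep them from DNA, were lower, Id4 having passed the filter only through its control mean. Id3 had 90.9 ± 1.09 FPKM in siEzh2 and 116 ± 1.37 FPKM in control samples (SD, n = 3 each, adjusted p = 0.000443, log2 fold change −0.35), and Id2 a log2 fold change of −0.25 (adjusted p = 0.00329). Tle1, a Groucho corepressor, was higher (log2 fold change 0.18, adjusted p = 0.0109).

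Both COUP-TF genes, orphan nuclear receptors, were higher. Nr2f1 (ENSMUSG00000069171, chromosome 13 from 78188973 to 78199757, minus strand) had 6.85, 6.95 and 6.93 FPKM in siEzh2 samples and 5.32, 5.13 and 5.43 FPKM in control samples. The groups were well apart, with a mean 1.31 times higher (log2 fold change 0.33, SE 0.0343, adjusted p = 0.000698). Nr2f2, which sets venous identity (ENSMUSG00000030551, chromosome 7 from 70351944 to 70366735, minus strand), had 17.1, 17.3 and 17.2 FPKM in siEzh2 samples and 15.3, 15.7 and 16.4 FPKM in control samples. It was higher in every siEzh2 sample, by 1.09 times (log2 fold change 0.11, SE 0.0375, adjusted p = 0.0463), a call that was lost without any 1 of the samples other than control sample 3 (adjusted p = 0.0851 to 0.128). The ratio of Nr2f2 to Nr2f1 was 2.49 ± 0.00626 in siEzh2 and 2.99 ± 0.0940 in control samples (SD, n = 3 each, exact permutation p = 0.1, the smallest possible). All 6 paralog or family ratios computed gave this same p, Sox9 over Sox4, with nearly equal means, among them.

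**Figure D3:**
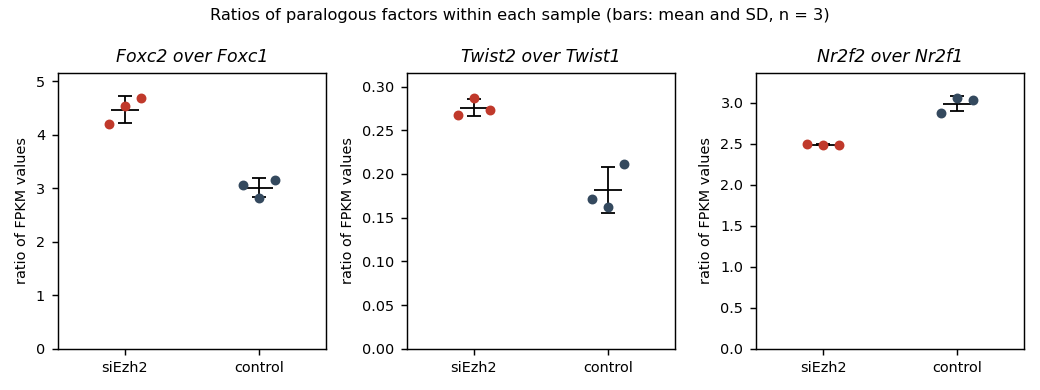
Ratio of the FPKM values of 2 paralogs within each sample (vertical axes, from 0), siEzh2 samples on the left and control samples on the right; bars are the mean and SD (n = 3 each). Foxc2 over Foxc1 and Twist2 over Twist1 lie higher in siEzh2 samples and Nr2f2 over Nr2f1 lower, without overlap.

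Among the 33 near-silent factors, 27 had at least 10 reads over the 6 samples and were tested with limma-voom. Of the 27, 4 were higher (Sox11, Pax3, Tfap2a and Tfap2c), with a median log2 fold change of 0.31. Over the 6839 near-silent genes with at least 10 reads 7.19% were higher and 3.41% lower, with a median of 0.13. No near-silent factor was lower by limma-voom or by limma on log2(FPKM + 0.1). The groups did not overlap in FPKM for 10 of the 27, beside 23.1% of the near-silent genes with at least 10 reads. Of the 23 that did not pass, the groups were apart for 6 and overlapped for 17. The 6 factors under 10 reads, Sox1, Sox18, Foxa2, Pax6, Pax7 and Hand1, had 9 reads in all in siEzh2 samples and 17 in control samples, with at most 3 in 1 sample. At these depths a gene with no read in 1 library may still have up to 3 reads, or 0.16 to 0.187 CPM, counting error alone considered.

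All AP-2 genes, which act in neural crest, skin and placenta, were near-silent, and 2 of 3 were higher. Tfap2c (ENSMUSG00000028640, chromosome 2 from 172549593 to 172558622, plus strand) had 59, 68 and 58 reads in siEzh2 samples and 32, 21 and 29 reads in control samples. This was 0.985 ± 0.0738 FPKM in siEzh2 and 0.402 ± 0.0883 FPKM in control samples (SD, n = 3 each), 2.45 times higher and without overlap (log2 fold change 1.30, SE 0.243, adjusted p = 5.13e-05). It was the only near-silent factor over 1 FPKM in any sample, at 1.05 FPKM in siEzh2 sample 2. Tfap2a (ENSMUSG00000021359, chromosome 13 from 40715302 to 40738376, minus strand) had 36, 60 and 48 reads in siEzh2 samples and 34, 22 and 31 reads in control samples. In FPKM the groups did not overlap, and the mean was 1.79 times higher (log2 fold change 0.85, SE 0.259, adjusted p = 0.00978), a call lost without control sample 2 (adjusted p = 0.0771) or siEzh2 sample 2 (0.0669). Tfap2b had 11 reads in siEzh2 and 3 in control samples (adjusted p = 0.118). Wt1, a factor of mesothelium and podocytes, had 9 reads in each group. Mesothelial markers summed to 24.9 to 26.9 FPKM in siEzh2 and 17.7 to 18.4 FPKM in control samples. Of the 3 tested ones 2 were higher (Krt19 and Upk1b), beside 24.1% of all tested genes. Their member Lrrn4 had 0 reads in siEzh2 samples and 1 in control samples.

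**Figure D4:**
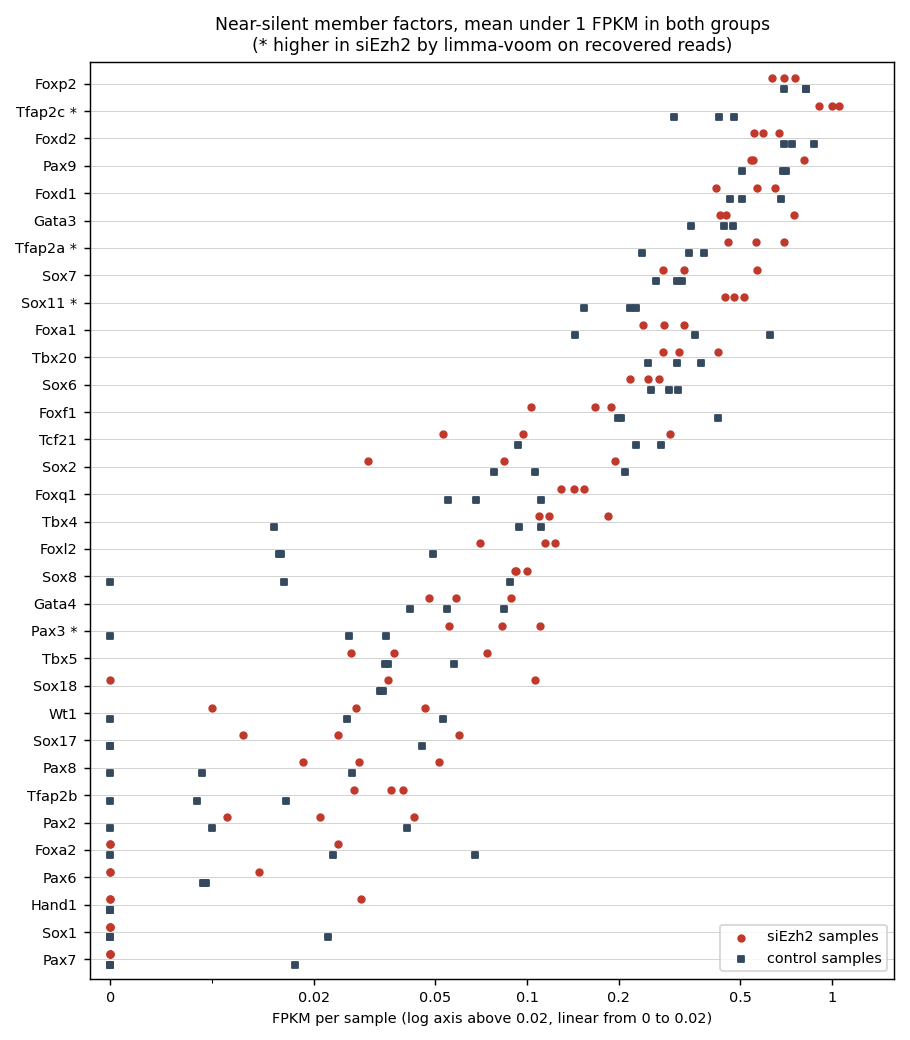
FPKM in each sample (horizontal axis, log above 0.02 and linear from 0 to 0.02) for the 33 near-silent factors, siEzh2 samples as red circles drawn above control samples as dark squares. Stars mark the 4 factors that were higher on recovered reads; the 3 circles of each lie to the right of its 3 squares.

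Transcripts that start within 5000 bases of a factor's start were measured for 19 pairs, all on the opposite strand. Over all genes with at least 10 reads limma-voom called 19.0% higher and 17.0% lower. Of the 19 transcripts 14 had at least 10 reads, and 3 of these were higher, a share near that of all genes. They lie next to Nr2f1, Nr2f2 and Foxf2, which were themselves higher. Gm38708 beside Gata2 and BC006965 beside Sox9, also next to higher factors, did not pass. Their log2 fold changes were −1.05 and −0.33 (adjusted p = 0.229 and 0.812). A830082K12Rik, 1740 bases from the start of Nr2f1, had 648 reads in siEzh2 and 542 in control samples (log2 fold change 0.39, adjusted p = 0.00887), but did not pass on FPKM (adjusted p = 0.0597). B130024G19Rik, 1825 bases from the start of Nr2f2, had 219 and 167 reads in siEzh2 and control samples (0.54, adjusted p = 0.0301). Exons of Nr2f1 and Nr2f2 overlap these transcripts over 2.42% and 7.46% of their bases. 1700018A04Rik, 24 bases from the start of Foxf2, had 53 reads in siEzh2 and 24 in control samples (1.25, adjusted p = 0.0336). Foxd2os, 384 bases from the start of Foxd2, was lower on FPKM at 1.13 in siEzh2 and 1.41 in control samples (adjusted p = 0.0205), but did not pass on reads (adjusted p = 0.152).

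Of 43 other genes of these families in the tables, 14 were tested, and 6 were higher and 1 lower, beside 24.1% and 22.7% of all tested genes, with a median log2 fold change of 0.14. Foxp4, a paralog of Foxp1, had 12.2 ± 0.0255 FPKM in siEzh2 and 8.50 ± 0.599 FPKM in control samples (SD, n = 3 each, adjusted p = 0.000833, log2 fold change 0.47). Foxl1, which marks mesenchyme of the gut, lies beside Foxf1 and Foxc2 and had 3.48 ± 0.672 and 2.27 ± 0.0647 FPKM in siEzh2 and control samples (SD, n = 3 each, adjusted p = 0.0176, log2 fold change 0.44). Foxj3 was higher (0.14, adjusted p = 0.0187) and Foxj2 lower (−0.14, adjusted p = 0.0409). Foxl1 lost its call without control sample 2 or 3 or siEzh2 sample 1 (adjusted p = 0.0512 to 0.0558), Foxj3 without control sample 2 or 3 or siEzh2 sample 2 (0.0548 to 0.0614), and Foxj2 without any 1 sample but control sample 3 (0.0709 to 0.103). With the replicate number as a block Foxj3 (0.0531) and Foxj2 (0.0658) lost their calls. Of the 14 near-silent ones with at least 10 reads Tcf23 and Tcf24, bHLH genes, were lower and the others did not pass, beside 7.19% higher and 3.41% lower among all such genes.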

How the data were processed

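RNA of 6 samples (3 siEzh2, 3 control) was sequenced with a stranded mRNA kit, per the labels' protocols. The authors deposited 1 table per sample with an FPKM value per gene, named so per the file headers. Trimmomatic, HISAT2, HTSeq, Cufflinks and mm10 are named per the submitters' processing notes, without versions or order. The test planned for counts did not suit these FPKM values, so limma 3.58.1 (R 4.3.3, no covariate) was used on log2(FPKM + 1), a scale that understates changes of low genes. Genes averaging 1 FPKM or more in 1 group were tested, with adjusted p under 0.05 as the threshold. FPKM multiplied by exon length from GENCODE M21 moved in steps of 1 read, and 98.4% to 98.5% of the lower values were whole read numbers to 0.02. Genes with at least 10 such reads were tested with limma-voom. Both fits were run on simulated data in which far fewer genes changed than were called here. That run checked the code and does not measure the error rate in these data. Pearson's r of log2 values was 0.992 to 0.994 within a group and 0.978 to 0.980 across groups, and no pair of files was a duplicate. Tables and plots were made in Python 3.11.15 (matplotlib 3.10.9, scipy 1.17.1, numpy 2.4.6, pandas 2.3.3). The members, gene lists and tests were chosen with earlier results of these data known. Every member is named, with values in every sample for those that passed. Of other family genes and of partners up to 3 with the smallest p in each direction are named, of cartilage and FOXO targets up to 2, and further names were chosen after their values were seen. The alternatives tried were no filter, quantile normalization, a filter at 5 FPKM, a pseudocount of 0.1, trend and robust on, the replicate block, leaving out each sample, limma-voom for all genes and, for near-silent genes, upper-quartile library sizes, at least 30 reads and limma on log2(FPKM + 0.1).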

Additional observations from a re-analysis of the deposited data

How the results depend on the processing

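Member counts held within 1.5 times under each alternative: 8 to 14 tested members were higher and 3 to 6 lower (8 to 10 and 3 to 4 with 1 sample left out), and 3 to 5 near-silent members were higher and 0 lower (limma-voom, and limma on log2(FPKM + 0.1)). Over all genes 2316 to 2502 were higher and 2149 to 2346 lower with 1 sample left out, and Ezh2 stayed between −1.16 and −1.09. Whether replicate numbers pair the samples was not settled. Correlations of deviations from group means were small, 0.0243, 0.0695 and 0.0405 for same-numbered pairs and −0.0623 to 0.0218 for the others. Each sample correlated best with its own number. With the number as a block 2564 genes were higher and 2385 lower. Of the members 9 were higher and 3 lower, Sox13 (adjusted p = 0.0596) and Nr2f2 (0.0839) losing the call.

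Other family genes, 6 higher and 1 lower, gave 3 and 0 with no filter, 3 and 2 with a mean of at least 5 FPKM, 2 lower with quantile normalization, 2 lower on recovered reads and 5 and 0 with the replicate block, where Foxj3 (adjusted p = 0.0531) and Foxj2 (0.0658) lost the call. Leaving out a sample gave 3 to 5 higher and 0 to 1 lower, and 3 higher without control sample 3 or siEzh2 sample 3. Partners gave 4 higher on recovered reads, 5 lower at the 5 FPKM filter, and 2 to 3 higher and 7 to 9 lower with a sample left out. Cartilage genes gave 0 in either direction at that filter, which left fewer genes to test, and 2 lower on recovered reads. Other causes were not tested.

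With other settings than a sample left out or the block, calls were lost for Sox13 and Tbx3 with no filter (adjusted p = 0.116 and 0.0748) and with trend and robust on (0.0757 and 0.0771), Tbx3 with quantile normalization (0.0767), Nr2f2 with no filter (0.0622) and a pseudocount of 0.1 (0.0501), and Tfap2a on log2(FPKM + 0.1) (0.0539). Foxl1 and Foxj2 also lost theirs with no filter (0.0504 and 0.0706). On recovered reads of the genes tested on FPKM, Foxc2, Foxo1, Gata6 and Tbx18 gained a call as higher and Foxo3 and Tbx2 as lower, but Foxo1 did not pass among all genes with at least 10 reads (0.0607, against 0.0490). Foxo3 also gained a call with quantile normalization (0.0414), the 5 FPKM filter (0.0286) and trend and robust on (0.0385), Foxc2 with the last 2 of these (0.0471 and 0.0475), and Foxl2 and Tfap2b on log2(FPKM + 0.1) (0.0317 and 0.0410).

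Directions turned for members that had no call. With 1 sample left out, the log2 fold change ran from −0.086 to 0.00090 for Sox5, −0.080 to 0.043 for Tbx15, −0.99 to 0.089 for Sox2, −0.73 to 0.30 for Foxa1, −0.15 to 0.16 for Foxd1, −0.090 to 0.38 for Gata4, −0.31 to 0.31 for Tbx5, −0.045 to 0.27 for Tbx20, −0.19 to 0.090 for Pax9 and −0.49 to 1.36 for Wt1. Pax9 was at 0.0056 with the replicate block. Depth limits the near-silent members, of which 6 had under 10 reads and were not tested.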
